A study of Canis lupus familiaris with 12 samples.

Results

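ABC transporters are membrane pumps driven by ATP, and the genes described here are the members of that superfamily best known from multidrug resistance, ABCB1, ABCC1, ABCC2, ABCC5 and ABCG2, together with ABCA4. Their probes were chosen by name: every probe whose transcript accession was that of a dog RefSeq transcript of 1 of these 6 genes was taken, and each probe was kept apart. The rule reads names only, but the genes were picked with earlier results of these data known. This gave 9 probes of 5 genes, out of 43603 probes and 832 named genes. ABCB1 had 2 probes, ABCC1 had 1, ABCC2 had 2, ABCC5 had 3 and ABCA4 had 1; no probe matched ABCG2 through the accessions, and that gene was not analysed here. Of the 9 probes, 7 were bright enough to be tested, and these 7 were well above background on all 12 arrays.

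The cells were Mi/CMM1, a single cell line from a dog oral melanoma, hybridised to Agilent one-colour (Cy3) dog arrays, with 3 arrays for each of 4 groups. The treated groups received piroxicam, carprofen or robenacoxib, each at its own inhibitory concentration for these cells, and all of them are cyclooxygenase inhibitors of the nonsteroidal anti-inflammatory class; the control cells received no treatment, and no vehicle is named for them. The labels conflict: the sample labels and the design text place piroxicam at 116 µM, carprofen at 779 µM and exposure at 6 h, whereas the treatment protocol places piroxicam at 779 µM, carprofen at 116 µM and exposure at 24 h. Robenacoxib is at 156 µM in both versions. Which version holds was not settled here, and in either one the doses of the drugs differ.

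P-glycoprotein, the product of ABCB1, carries a wide range of lipophilic drugs out of cells, and dogs with a broken copy of the gene are known for their sensitivity to ivermectin. ABCC1 (MRP1), ABCC2 (MRP2) and ABCC5 (MRP5) export organic anions and conjugates: glutathione conjugates and leukotriene C4 by MRP1, bilirubin glucuronides into bile by MRP2, and cyclic nucleotides and nucleotide analogues by MRP5. ABCG2 (BCRP) is a further drug exporter of gut, liver and blood-brain barrier. ABCA4, known from human and mouse, stands apart from a drug exporter label: it moves retinoids across the disc membranes of photoreceptors.

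Levels are given as the log2 of the background-subtracted signal minus the 75th percentile of that array on the log2 scale, so that 0 is the level of the probe at that percentile. A probe counts as called when its Benjamini-Hochberg adjusted p in limma, taken over all 31996 tested probes of a comparison, was below 0.05. The 75th percentile of the signal lay between 2084 and 2502 on the 12 arrays, 66.2% to 80.0% of spots were well above background, and 0 spots were saturated. Arrays of the same group correlated at 0.9946 to 0.9982 and arrays of different groups at 0.9901 to 0.9975. Slide 1 held the control arrays and carprofen 1, slide 2 held carprofen 2 and 3 with piroxicam 1 and 2, and slide 3 held piroxicam 3 with the robenacoxib arrays, so the piroxicam and robenacoxib arrays had no control array on their slides. Scaling to the spiked-in transcripts instead of the percentile gave a median log2 change of all tested probes of 0.14 with piroxicam, 0.35 with carprofen and 0.27 with robenacoxib, where percentile scaling gave -0.023, -0.023 and -0.030. The calls against control then split into 11097 higher and 1007 lower with piroxicam, 24706 and 58 with carprofen, and 21383 and 136 with robenacoxib, and with percentile scaling into 3805 and 5145, 4266 and 6228, and 3062 and 4044. All changes below are therefore relative to the bulk of the probes on the array. The melanocyte markers MITF and SLC45A2 were well above background on all 12 arrays and MC1R on 8 of 12, while TYR, KIT and EDNRB were on the array but not well above background on all 3 arrays of any group. MITF was called lower with carprofen, at -0.13 (adjusted p = 0.0080), a difference that was 0.25 with scaling to the spiked-in transcripts and that lost its call when slides were blocked (-0.099, adjusted p = 0.10). MC1R and SLC45A2 were not called with carprofen, at 0.43 (adjusted p = 0.53) and 0.15 (adjusted p = 0.58). The MITF value is therefore that of 1 gene and does not show a fall of the melanocyte list. The other 7 of the 13 listed melanocyte markers had no named probe.

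A single ABCB1 probe and the 3 ABCC5 probes rose with carprofen and with robenacoxib, ABCA4 rose with carprofen, and that ABCB1 probe alone among the 7 rose, by less, with piroxicam. No transporter probe was called lower than in untreated cells, where 16.1% of all tested probes were called lower with piroxicam, 19.5% with carprofen and 12.6% with robenacoxib. Against control, 5 of the 7 probes rose with carprofen, where 32.8% of all tested probes were called and 13.3% were called higher. With robenacoxib 4 of 7 rose, where 22.2% of all tested probes were called and 9.57% higher. With piroxicam 1 of 7 rose, where 28.0% were called and 11.9% higher. The treated and control arrays did not overlap on 3 of the 7 probes with piroxicam, 5 with carprofen and 6 with robenacoxib, beside 47.7%, 47.0% and 41.6% of all tested probes. For piroxicam the 7 probes had a median log2 change of 0.064, for carprofen 0.31 and for robenacoxib 0.33, beside -0.023, -0.023 and -0.030 over all tested probes. The 3 comparisons share the same control arrays, and several of the probes share a gene, so these counts are not independent of each other. The overall F-test among the 4 groups called 6 of the 7 probes, where 48.0% of all tested probes were called; ABCA4 was the exception, with an adjusted p of 0.057 in limma.

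ABCB1 was measured by probes A_11_P0000019933 and A_11_P050841, both placed on transcript NM_001003215, and their readings differed. Probe A_11_P0000019933 had log2 levels of -1.47, -1.49 and -1.61 with piroxicam, -1.11, -1.06 and -0.98 with carprofen and -0.95, -0.85 and -0.92 with robenacoxib, against -1.78, -1.71 and -1.70 in control. Each drug's lowest array was above the highest control array, and the carprofen and robenacoxib arrays were above those of piroxicam. In processed signal this was 802 ± 31.6 with piroxicam, 1128 ± 80.1 with carprofen, 1187 ± 67.7 with robenacoxib and 634 ± 10.6 in control (SD, n = 3 each), at 21.7 to 55.1 times the local background.

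The log2 level of A_11_P0000019933 rose by 0.82 with robenacoxib over control (SE 0.049, adjusted p = 1.27e-05 in limma), which is 1.77-fold. Only 0.316% of all tested probes had a larger increase in that comparison. With carprofen it rose by 0.68 (SE 0.049, adjusted p = 1.82e-05), or 1.60-fold, with 1.61% of probes above it. With piroxicam it rose by 0.21 (SE 0.049, adjusted p = 0.013), or 1.15-fold, with 13.0% of probes above it. In order of level the groups ran robenacoxib, carprofen, piroxicam and control; each step of that order was called except robenacoxib over carprofen, whose difference was 0.14 (95% confidence interval 0.030 to 0.25, adjusted p = 0.12).

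The brighter ABCB1 probe, A_11_P050841, had log2 levels of 2.51, 2.49 and 2.51 with piroxicam, 2.53, 2.43 and 2.53 with carprofen and 2.71, 2.58 and 2.62 with robenacoxib, against 2.51, 2.52 and 2.50 in control. The piroxicam and carprofen arrays overlapped those of control, and the robenacoxib arrays were above them. No drug was called against control on this probe. The difference was -0.0069 with piroxicam (95% confidence interval -0.095 to 0.081, adjusted p = 0.92), -0.013 with carprofen (-0.10 to 0.075, adjusted p = 0.84) and 0.12 with robenacoxib (0.033 to 0.21, adjusted p = 0.054). For carprofen and robenacoxib, the intervals of the 2 ABCB1 probes do not meet: that of A_11_P0000019933 began at 0.57 with carprofen and at 0.71 with robenacoxib. Within an array, the log2 signal of A_11_P0000019933 minus that of A_11_P050841 was -4.03 ± 0.082 with piroxicam, -3.55 ± 0.082 with carprofen, -3.54 ± 0.12 with robenacoxib and -4.24 ± 0.049 in control (SD, n = 3 each). This gap is given as a description, since the disagreement between these probes was known when the genes were chosen. Where on the transcript either probe lies is not given in the sources used here, and the cause of the disagreement was not tested. The probe A_11_P050841 read 446 to 680 times its local background and was not saturated on any array.

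**Figure D1:**
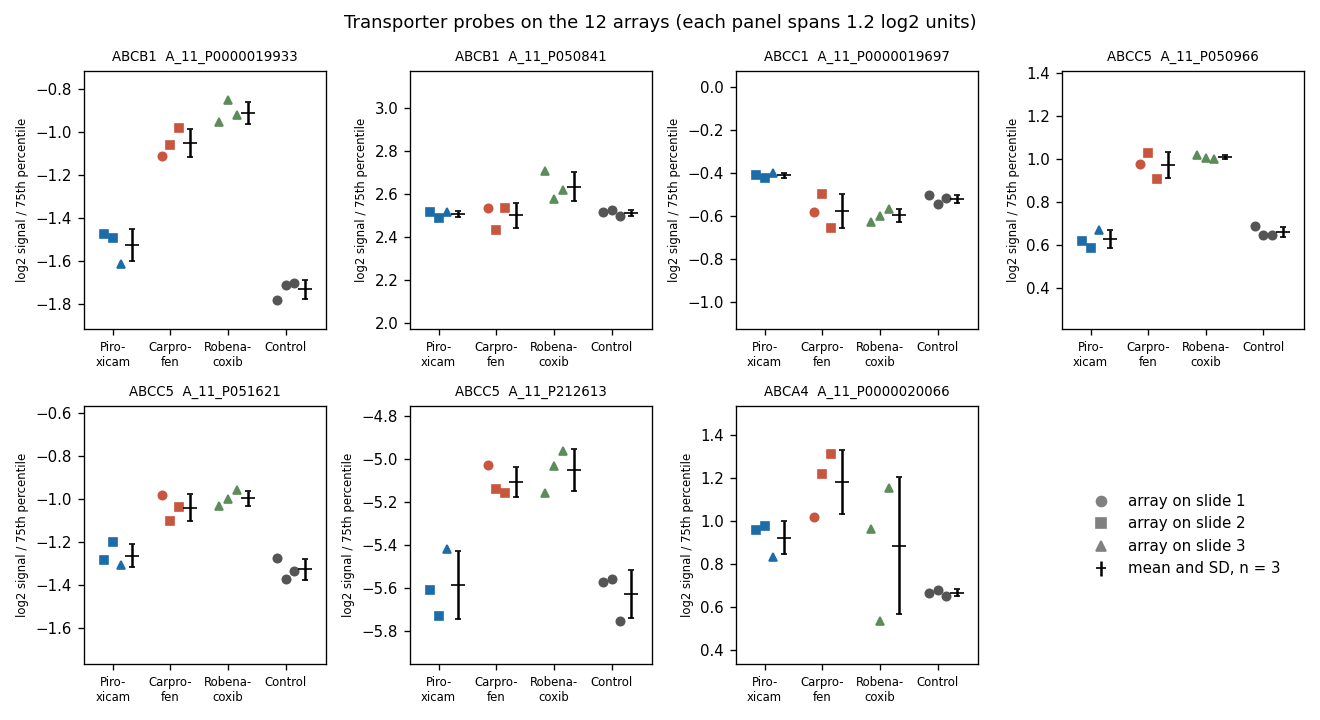
Log2 signal relative to the 75th percentile of each array (vertical axis) for the 7 tested transporter probes on the 12 arrays, by group, with marker shape for the slide and the mean and SD of 3 arrays beside each group; every panel spans the same range of log2 units. The carprofen and robenacoxib arrays lie above those of piroxicam and control for ABCB1 A_11_P0000019933 and the ABCC5 probes, while ABCB1 A_11_P050841 and ABCC1 stay within a narrow band and robenacoxib 2 lies below the other treated arrays for ABCA4.

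ABCC5 was the other transporter whose levels rose with carprofen and robenacoxib, and its 3 probes on transcript NM_001128100 went the same way. Probe A_11_P050966, printed at 5 spots on each array, had log2 levels of 0.62, 0.59 and 0.67 with piroxicam, 0.98, 1.03 and 0.91 with carprofen and 1.02, 1.004 and 1.003 with robenacoxib, against 0.69, 0.65 and 0.65 in control. The carprofen and robenacoxib arrays were all above the piroxicam and control arrays, which overlapped each other. Its log2 level rose by 0.31 with carprofen (SE 0.035, adjusted p = 0.00023) and by 0.35 with robenacoxib (SE 0.035, adjusted p = 0.00019), or 1.24-fold and 1.27-fold over control. With piroxicam the difference was -0.034 (95% confidence interval -0.11 to 0.045, adjusted p = 0.51). The SD of log2 signal between its repeat spots ran from 0.018 to 0.093 within an array.

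Probe A_11_P051621 of ABCC5 had log2 levels of -1.28, -1.20 and -1.30 with piroxicam, -0.98, -1.10 and -1.04 with carprofen and -1.03, -0.999 and -0.958 with robenacoxib, against -1.27, -1.37 and -1.33 in control. Again the carprofen and robenacoxib arrays were clear of control and the piroxicam arrays were not. The rise was 0.29 with carprofen (SE 0.043, adjusted p = 0.0010) and 0.33 with robenacoxib (SE 0.043, adjusted p = 0.00084), while piroxicam differed from control by 0.064 (95% confidence interval -0.032 to 0.16, adjusted p = 0.30). The third ABCC5 probe, A_11_P212613, was dim, at 3.25 to 5.27 times the local background. Its processed signals were 47.2, 42.9 and 54.8 with piroxicam, 68.8, 70.8 and 63.1 with carprofen and 60.8, 69.4 and 71.8 with robenacoxib, against 44.9, 44.6 and 38.4 in control. Its log2 level rose by 0.52 with carprofen (SE 0.087, adjusted p = 0.0020) and by 0.58 with robenacoxib (SE 0.087, adjusted p = 0.0019). Piroxicam differed from control by 0.043 (95% confidence interval -0.15 to 0.24, adjusted p = 0.75). At that brightness the size of the change depends on how background is removed: with normexp correction and percentile scaling it was 0.17 with carprofen (adjusted p = 0.46) and 0.40 with robenacoxib (adjusted p = 0.082).

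ABCC1 was measured by 1 probe, A_11_P0000019697 on transcript NM_001002971, and no drug was called against control. Its log2 levels were -0.41, -0.42 and -0.40 with piroxicam, -0.58, -0.50 and -0.66 with carprofen and -0.63, -0.60 and -0.57 with robenacoxib, against -0.50, -0.54 and -0.52 in control. The piroxicam arrays were above control, the robenacoxib arrays below it and the carprofen arrays on both sides of it. The difference from control was 0.11 with piroxicam (95% confidence interval 0.027 to 0.20, adjusted p = 0.053), -0.057 with carprofen (-0.14 to 0.027, adjusted p = 0.29) and -0.076 with robenacoxib (-0.16 to 0.0083, adjusted p = 0.19). For piroxicam the direction was not stable: it was -0.033 with normexp correction and percentile scaling and -0.023 in the authors' deposited table, and neither was called. Of 24 alternatives, 3 turned the sign of this difference and 6 called it higher, and its highest value was 0.27.

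ABCC2, the transporter of the bile canaliculus, was not well above background on any array. Its probes A_11_P0000019804 and A_11_P053601, on transcript NM_001003081, had processed signals from 3.11 to 14.3 and from 3.13 to 14.8 over the 12 arrays, where the lowest signal of any probe well above background was 13.1 to 28.5 on an array. No comparison was made for them, and a level below that floor was not detectable.

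ABCA4, on probe A_11_P0000020066 and transcript NM_001003360, had the largest standard error of the 7 probes. Its log2 levels were 0.96, 0.98 and 0.83 with piroxicam, 1.02, 1.22 and 1.31 with carprofen and 0.96, 0.54 and 1.16 with robenacoxib, against 0.67, 0.68 and 0.65 in control. All piroxicam and carprofen arrays were above control, and 1 robenacoxib array, replicate 2, was below it. Only carprofen was called, with a rise of 0.52 (SE 0.14, adjusted p = 0.018), or 1.43-fold. The difference from control was 0.26 with piroxicam (95% confidence interval -0.052 to 0.56, adjusted p = 0.20) and 0.22 with robenacoxib (-0.089 to 0.53, adjusted p = 0.30). Without robenacoxib replicate 2 the robenacoxib difference was 0.39 (adjusted p = 0.021) and piroxicam was called as well (0.26, adjusted p = 0.046). Without carprofen replicate 2 or 3 the carprofen rise was 0.50 (adjusted p = 0.054) or 0.45 (adjusted p = 0.064).

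**Figure D2:**
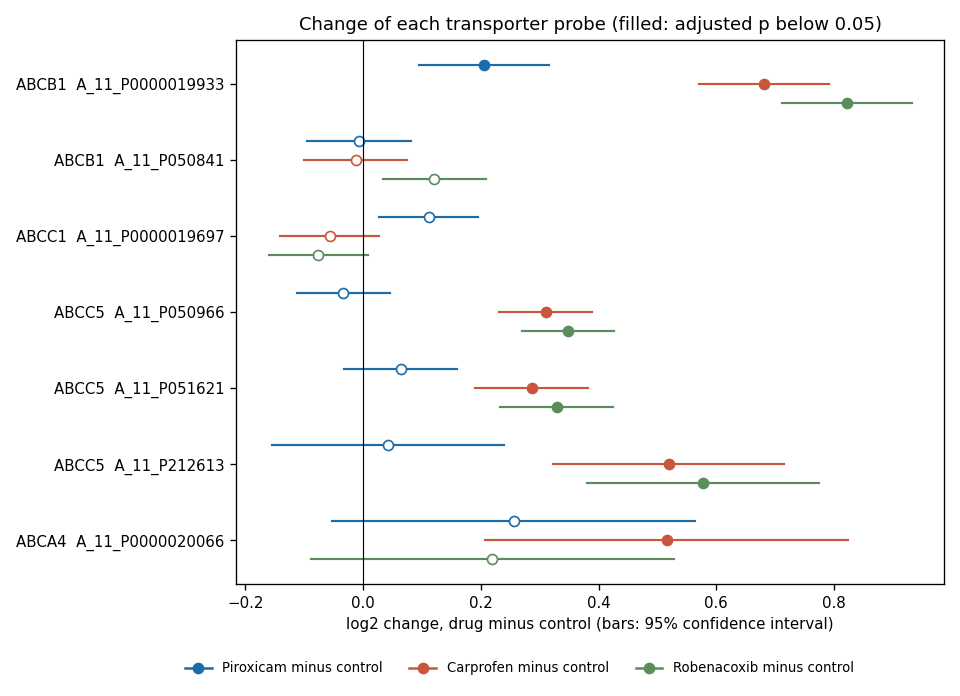
Log2 change of each tested transporter probe (rows) against control for piroxicam, carprofen and robenacoxib, with bars for the 95% confidence interval and filled points where the adjusted p was below 0.05. ABCB1 A_11_P0000019933 reaches 0.82 with robenacoxib and 0.68 with carprofen, far from the other ABCB1 probe, and the 3 ABCC5 probes lie between 0.29 and 0.58 for those drugs, with piroxicam near 0.

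The drugs were also set against each other, with the reservation that their doses differ in either version of the labels and were not matched. Carprofen was called against piroxicam on 5 of the 7 probes, 4 higher and 1 lower, where 37.5% of all tested probes were called, 18.6% higher and 18.9% lower. The arrays of these groups did not overlap on 6 of the 7 probes, beside 47.1% of all tested probes. The carprofen level exceeded that of piroxicam by 0.48 log2 units for ABCB1 A_11_P0000019933 (adjusted p = 6.62e-05) and by 0.34, 0.22 and 0.48 for ABCC5 probes A_11_P050966, A_11_P051621 and A_11_P212613 (adjusted p = 6.12e-05, 0.0027 and 0.0021). ABCC1 was lower with carprofen than with piroxicam, at -0.17 (SE 0.038, adjusted p = 0.0063), but scaling to the spiked-in transcripts turned this difference to 0.047. Normexp correction also ended the call under either scaling, and in the authors' deposited table the difference was -0.10 (adjusted p = 0.14). ABCB1 A_11_P050841 differed by -0.0057 (95% confidence interval -0.094 to 0.082, adjusted p = 0.93) and ABCA4 by 0.26 (-0.048 to 0.57, adjusted p = 0.17).

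Robenacoxib was called against piroxicam on 6 of the 7 probes, 5 higher and 1 lower, where 27.1% of all tested probes were called, 13.9% higher and 13.2% lower. The arrays did not overlap on 6 of the 7, beside 41.9% of all tested probes. ABCB1 A_11_P0000019933 was 0.62 log2 units higher (adjusted p = 3.03e-05) and the ABCC5 probes were 0.38, 0.27 and 0.53 higher (adjusted p = 6.51e-05, 0.0016 and 0.0018, in the order given above). ABCB1 A_11_P050841 was 0.13 higher (SE 0.039, adjusted p = 0.037), a call that held in 9 of 25 alternative settings. ABCC1 was lower, at -0.19 (SE 0.038, adjusted p = 0.0053), a call that was lost with normexp correction under either scaling and in the authors' deposited table, at -0.094 (adjusted p = 0.19) in the table. Blocking on slide also ended it (-0.20, adjusted p = 0.056), as did scaling to the spiked-in transcripts (-0.045, adjusted p = 0.45). ABCA4 differed by -0.036 (95% confidence interval -0.34 to 0.27, adjusted p = 0.88).

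Robenacoxib against carprofen gave 0 calls among the 7 probes in limma, where 8.15% of all tested probes were called, 4.42% higher and 3.74% lower. The arrays did not overlap on 2 of the 7, beside 27.1% of all tested probes, and the same 2, both of ABCB1, also had an unadjusted p below 0.05. For A_11_P050841 the difference was 0.13 (95% confidence interval 0.046 to 0.22, adjusted p = 0.070). For the ABCC5 probes the differences were 0.038 (-0.041 to 0.12), 0.043 (-0.053 to 0.14) and 0.058 (-0.14 to 0.25), and for ABCC1 -0.019 (-0.10 to 0.065). ABCA4 had the widest interval, -0.60 to 0.011 around -0.30. The ABCA4 interval leaves room for a difference of that size, and the intervals of both ABCB1 probes lie above 0. These values therefore do not show that robenacoxib and carprofen acted alike on the transporters.

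Because the groups were spread unequally over the slides, each comparison was repeated with the slide as a blocking term, and again on any single slide that carried both groups. The slides form a chain, so that the blocked value of carprofen against control comes from carprofen 1 and the 3 controls on slide 1, and the blocked value of robenacoxib against control is a sum over 3 such steps. ABCB1 A_11_P0000019933 remained called with the block for carprofen (0.62, adjusted p = 0.00089) and for robenacoxib (0.86, adjusted p = 0.013), and was not called for piroxicam (0.16, adjusted p = 0.26). The ABCC5 probes remained called for carprofen, at 0.32, 0.35 and 0.60 (adjusted p = 0.0073, 0.0080 and 0.0095). For robenacoxib they were 0.29, 0.48 and 0.45 and were not called (adjusted p = 0.15, 0.059 and 0.25). With the block, 16.4% of all tested probes were called for carprofen, 1.41% for robenacoxib and 5.09% for piroxicam. ABCA4 with carprofen fell out of the called set at 0.35 (adjusted p = 0.26).

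Within slide 1 alone, carprofen 1 against the 3 controls, the carprofen values were the same. No count of calls is given there, because a single carprofen array was compared. In that fit the lone carprofen array is assumed to vary like the controls. Within slide 2, carprofen 2 and 3 exceeded piroxicam 1 and 2 by 0.46 for ABCB1 A_11_P0000019933 (adjusted p = 0.028), by 0.36 for ABCC5 A_11_P050966 (adjusted p = 0.045) and by 0.52 for ABCC5 A_11_P212613 (adjusted p = 0.031). ABCC5 A_11_P051621 (0.17, adjusted p = 0.12) and ABCC1 (-0.16, adjusted p = 0.20) were not called within slide 2, and ABCA4 was called (0.30, adjusted p = 0.048); 14.2% of all tested probes were. Within slide 3, robenacoxib exceeded piroxicam 3 by 0.70 for ABCB1 A_11_P0000019933. That slide held a single piroxicam array, so no count of calls is given for it.

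**Figure D3:**
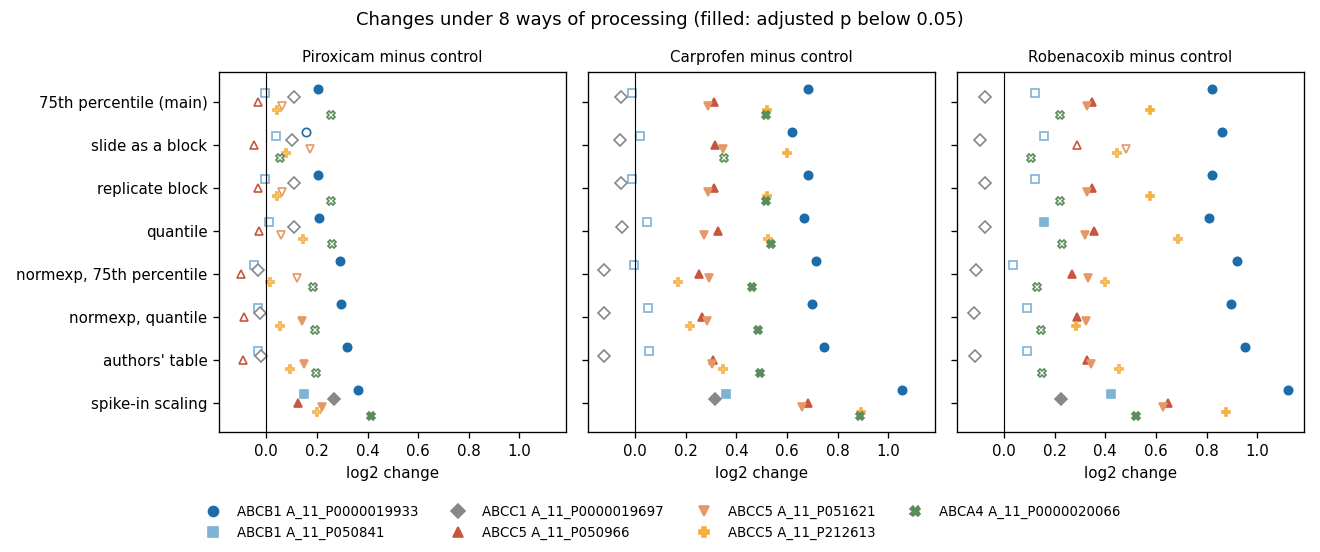
Log2 change against control (horizontal axis) of the 7 tested transporter probes under 8 ways of processing (rows), with 1 panel for each of piroxicam, carprofen and robenacoxib; filled symbols had an adjusted p below 0.05. ABCB1 A_11_P0000019933 stays the largest change in the robenacoxib panel (0.79 to 1.12 over all settings run) and in the carprofen panel (0.62 to 1.05), and scaling to the spiked-in transcripts moves the probes to the right in every panel and turns ABCC1 and ABCB1 A_11_P050841 positive where they were negative.

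Over the 12 arrays, ABCB1 A_11_P0000019933 followed the ABCC5 probes more closely than it followed the other ABCB1 probe. Its Pearson correlation was 0.91, 0.94 and 0.89 with the ABCC5 probes in the order above, 0.48 with A_11_P050841, -0.65 with ABCC1 and 0.51 with ABCA4. The ABCC5 probes correlated with each other at 0.90 to 0.95. These values describe 12 arrays that fall into 4 groups on 3 slides and share their scaling, and are no test. Among 610 other named genes read on their brightest tested probe, the levels most like those of ABCC5 A_11_P050966 were BCL2, an inhibitor of apoptosis, at 0.96, CRYGS, a lens crystallin, at 0.92 and AMT, an enzyme of glycine cleavage, at 0.91. For ABCB1 A_11_P050841 they were SEC61A1 of the endoplasmic reticulum translocon (0.80), the nuclear receptor ESRRA (0.74) and SELENOS (0.74), and for ABCC1 they were CELA1 (0.89), the lysosomal phospholipase PLA2G15 (0.88) and TPMT (0.88). For ABCB1 A_11_P0000019933, chosen after its values were seen, they were AMT (0.96), ATP4A (0.95) and PKD1 (0.93).

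Few other genes of drug transport were named on this array. Of 36 other ABC transporters listed, only CFTR had a named probe, and it was too dim to test. Of 26 xenobiotic sensors and transcriptional regulators, 2 were tested. MYC rose by 0.63 with piroxicam (adjusted p = 4.80e-06) and fell by 0.44 with carprofen (adjusted p = 2.11e-05), and PPARD, a receptor for fatty acids, rose by 0.30 with piroxicam (adjusted p = 0.00060) and fell by 0.17 with carprofen (adjusted p = 0.0084). With robenacoxib 0 of the 2 were called in limma, beside 22.2% of all tested probes, with changes of 0.075 for MYC and 0.020 for PPARD. Of the 2, 1 had an unadjusted p below 0.05, as did 11129 of the 31996 tested probes. With slide as a block, MYC with piroxicam and with carprofen and PPARD with piroxicam remained called, and no other call named from these lists of regulators, enzymes, solute carriers and visual genes did. With scaling to the spiked-in transcripts, PPARD with carprofen turned to 0.20 and MYC with carprofen was -0.066 (adjusted p = 0.29).

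Of 33 listed drug-metabolising enzymes, 10 were tested. Piroxicam had 1 called higher and 4 lower, carprofen 1 and 2, and robenacoxib 1 and 2; of all tested probes, 11.9% were called higher and 16.1% lower with piroxicam, 13.3% and 19.5% with carprofen, and 9.57% and 12.6% with robenacoxib. CYP3A12, a dog cytochrome P450 of drug oxidation, rose by 0.62 with carprofen (SE 0.11, adjusted p = 0.0021) and by 0.45 with robenacoxib (SE 0.11, adjusted p = 0.015), and was 0.15 above control with piroxicam (adjusted p = 0.33). With slide as a block it was 0.42 with carprofen (adjusted p = 0.051) and 0.34 with robenacoxib (adjusted p = 0.45). TPMT, which methylates thiopurines, rose by 0.13 with piroxicam (adjusted p = 0.0051). CYP2B6 fell by 0.22 with piroxicam and by 0.17 with robenacoxib (adjusted p = 0.0052 and 0.021), and GPX1, a glutathione peroxidase, fell by 0.13 with piroxicam and by 0.13 with carprofen (adjusted p = 0.017 and 0.016). SULT1A1, a sulfotransferase, was called lower with piroxicam, at -0.17 (adjusted p = 0.028), but was at 0.024 in the authors' deposited table (adjusted p = 0.84) and at 0.0099 with normexp correction (adjusted p = 0.95). Blocking on slide left TPMT, CYP2B6, GPX1 and SULT1A1 uncalled against control with every drug. With scaling to the spiked-in transcripts, GPX1 turned positive with both drugs, CYP2B6 turned positive with robenacoxib (0.13), and CYP2B6 and SULT1A1 with piroxicam were -0.066 and -0.017.

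Of 18 listed solute carriers of drugs and organic ions, 2 were tested. SLC29A1, the equilibrative nucleoside transporter ENT1, fell by 0.12 with carprofen (adjusted p = 0.011) and by 0.11 with robenacoxib (adjusted p = 0.023); both values were positive with scaling to the spiked-in transcripts, at 0.25 and 0.19, and blocking on slide left neither called (adjusted p = 0.15 and 0.74). With piroxicam 0 of the 2 were called in limma, beside 28.0% of all tested probes. Of the 2, 1 had an unadjusted p below 0.05, as did 12796 of the 31996 tested probes. SLCO2A1, the prostaglandin transporter, was not called with any drug, at -0.017 with piroxicam, -0.14 with carprofen and -0.16 with robenacoxib.

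For ABCA4, the photoreceptor and visual cycle genes were read beside it: 9 of 30 were tested. RPE65, the isomerase of the visual cycle, rose by 0.25 with carprofen (adjusted p = 0.011) and PDE6G rose by 0.19 with carprofen (adjusted p = 0.047), while PDE6D fell by 0.084 with carprofen (adjusted p = 0.026) and by 0.091 with robenacoxib (adjusted p = 0.025), a fall that was positive with scaling to the spiked-in transcripts. Of the defining photoreceptor genes, PDE6A was dim, with a mean log2 level of -5.85 with piroxicam, -5.85 with carprofen and -5.88 with robenacoxib, against -5.62 in control, and PDE6B was well above background on 8 of 12 arrays. GNAT1, RCVRN and CRX were not well above background on all 3 arrays of any group. SAG was well above background on 5 of 12 arrays, and no fold is given for it. Blocking on slide left RPE65, PDE6G and PDE6D uncalled against control with every drug.

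Markers of other cell types moved with the drugs in places. Of 5 tested fibroblast markers, 1 was called higher (PDGFRB) and 2 lower (DCN, COL1A2) with piroxicam, beside 11.9% and 16.1% of all tested probes. With carprofen 3 were called lower (COL1A1, COL1A2, TIMP1), beside 19.5% of all tested probes. With robenacoxib 3 were called lower (COL1A1, DCN, TIMP1), beside 12.6%. Of these falls, those of COL1A1, COL1A2 and TIMP1 were positive with scaling to the spiked-in transcripts. With slide as a block, the fall of COL1A1 with carprofen was the 1 fibroblast marker call that remained, at -0.14 (adjusted p = 0.046). The summed level of the fibroblast markers, in multiples of the 75th percentile signal, was 140.5 to 147.7 with piroxicam, 131.3 to 138.6 with carprofen and 136.4 to 140.8 with robenacoxib, against 149.9 to 154.1 in control. Most of it came from TIMP1 and COL1A2, whose mean log2 levels in control were 6.25 and 6.01. PDGFRB, at -3.29 in control, was 0.40 above control with carprofen (adjusted p = 0.051) and 0.27 with robenacoxib (adjusted p = 0.20). The lower sums therefore do not show a fall of the whole fibroblast list. The hepatocyte and enterocyte list, whose cells carry much ABCC2, held AMN and CUBN, of which AMN was called lower with each drug, at -0.27 with piroxicam, -0.36 with carprofen and -0.39 with robenacoxib, and was 0.013 with carprofen with scaling to the spiked-in transcripts. The summed level of this list was 98.2 to 100.3 in control. It was 81.6 to 82.9 with piroxicam, 73.1 to 83.3 with carprofen and 74.3 to 76.4 with robenacoxib. Nearly all of that sum came from AMN, whose mean log2 level in control was 6.62, where CUBN was at -0.62. CUBN was not called against control for any drug, at 0.042 (piroxicam), 0.016 (carprofen) and -0.054 (robenacoxib). The lower sums are therefore those of the AMN probe and do not show a fall of the list. The epithelial marker TGM1 fell by 0.61 with piroxicam and rose by 0.60 with carprofen. When slides were blocked, AMN and TGM1 were called with carprofen (-0.25 and 0.68, adjusted p = 0.0055 and 0.0043) and not with piroxicam or robenacoxib. Of 4 leukocyte markers and the endothelial marker VWF, 0 were called against control in limma. Of all tested probes, 28.0% were called with piroxicam, 32.8% with carprofen and 22.2% with robenacoxib. With carprofen 1 leukocyte marker had an unadjusted p below 0.05, as did 13616 of the 31996 tested probes. The standard errors of CD4 and CD8A were 0.27 and 0.40, so the lack of calls does not show that leukocyte markers were unchanged. The part of these markers in the transporter values was not tested. In a bulk culture, fewer cells of a type and less RNA per cell cannot be told apart.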

How the data were processed

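The 12 one-colour arrays came from 1 dog cell line, 3 per group, grouped by the sample titles. Per the file headers, the deposited intensities were made with Feature Extraction 10.7.3.1, which subtracted background spot by spot on each array and normalized nothing across arrays. The authors' deposited log2 values were made, per the submitters' processing notes, using limma 3.24.15. Their log2 scale was judged from the numbers (column medians 7.67), their background correction and centring are not given, and they served as an alternative.

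Processed intensities were taken to log2, outlier-flagged spots were dropped, spots of a probe were averaged and the 75th percentile of each array was subtracted (R 4.3.3, limma 3.58.1 and data.table, version 1.17.8). Of 43603 probes, 31996 were tested, namely those well above background throughout at least 1 group. The model covered all 12 arrays (lmFit and eBayes, 8 residual degrees of freedom), with two-sided tests and Benjamini-Hochberg adjustment over those probes at 0.05. It was tested on simulated data. Precision is limited by how few arrays there were, with a median standard error of 0.053 for a log2 change. The design calls the replicates biological; how the cultures were separated is not stated, so p-values measure the spread between these samples.

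Gene names came through accessions from RefSeq's gene list for assembly UU_Cfam_GSD_1.0, which named 1313 probes (3.01%), 614 genes of them with a tested probe. No coordinates are given because the arrays name no build. Named here were every probe of the 6 genes, up to 4 genes of each pathway list by adjusted p in a comparison, and the 3 most similar named genes. A gene outside the 6 was read on its brightest tested probe. The members and lists were chosen with earlier results of these data known. A few listed genes that count in a list's total are not reported here.

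Alternatives were quantile normalization, scaling to 8 spiked-in probes, normexp correction (offset 50, on median signals) with percentile or quantile scaling, the authors' table, no filter and a filter on all 12 arrays, slide or replicate number as a block, array weights, the 2 groups of a comparison alone, single slides, and leaving out arrays.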

Additional observations from a re-analysis of the deposited data

How the results depend on the processing

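Of the changes of single transporter probes under the alternatives, 907 kept their direction and side of the threshold, 59 lost a call, 23 gained one and 40 turned in sign. ABCB1 A_11_P0000019933 with robenacoxib stayed called in 24 of 24 alternatives (0.79 to 1.12), with carprofen in 24 of 25 (0.62 to 1.05) and with piroxicam in 23 of 24 (0.16 to 0.36). The number of called probes with piroxicam, 1, was 6 with spike-in scaling and 3 with the 2 groups alone, beside 37.8% and 27% of all tested probes. It was 2 with normexp and quantile normalization (26% of all tested probes), the authors' table (24.9%), array weights (39.7%) or a filter on all 12 arrays (32.6%). With slide as a block it was 0, beside 5.09%. There 1 of the 7 had an unadjusted p below 0.05, as did 7108 of the 31996 tested probes. For carprofen, 5 became 7 with spike-in scaling, beside 77.4% of all tested probes. The carprofen count was 4 with quantile normalization (29.6%), normexp with percentile (17.2%) or quantile scaling (21.2%), the authors' table (20.2%) and slide as a block (16.4%). Leaving out control 3 and piroxicam 3 together also gave 4 (25.1%). No carprofen count is given for slide 1 alone, which held a single carprofen array. For robenacoxib, 4 became 7 on the spike-in scale and 1 after blocking on slide, beside 67.3% and 1.41% of all tested probes. Both normexp settings and the authors' table gave 3 for carprofen against piroxicam (5) and for robenacoxib against piroxicam (6). Of all tested probes, 21.1% to 28% and 14.7% to 19.5% were then called. For robenacoxib against piroxicam no count is given for slide 3 alone, which held a single piroxicam array. The F-test count, 6, was 3 with normexp and percentile scaling and in the authors' table, beside 30.1% and 37.3% of all tested probes. Robenacoxib against carprofen stayed at 0 throughout, beside 0.253% to 10.6% of all tested probes. Leaving out 1 array gave 1 to 2 calls for piroxicam, 4 to 5 for carprofen and 4 to 6 for robenacoxib. Of all tested probes, 20.2% to 29.6%, 25.2% to 32.7% and 14.5% to 23.8% were then called. There were 5 to 6 calls for carprofen against piroxicam (32% to 37.4%), 5 to 6 for robenacoxib against piroxicam (21.5% to 28.3%) and 5 to 7 in the F-test (40.6% to 48.6%). The 6 for robenacoxib against control came without robenacoxib 2.

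Sign changes fell on differences that were not called, except ABCC1 of carprofen against piroxicam, which was 0.047 with spike-in scaling. With spike-in scaling, ABCB1 A_11_P050841 was 0.15 with piroxicam, 0.36 with carprofen and 0.21 for carprofen against piroxicam, ABCC5 A_11_P050966 with piroxicam was 0.12, ABCC1 was 0.32 with carprofen and 0.22 with robenacoxib, and ABCA4 of robenacoxib against piroxicam was 0.11. For robenacoxib against carprofen the ABCC5 probes A_11_P050966, A_11_P051621 and A_11_P212613 were then -0.035, -0.030 and -0.015. With quantile normalization, ABCB1 A_11_P050841 was 0.012 with piroxicam, 0.048 with carprofen and 0.035 for carprofen against piroxicam. With normexp and percentile scaling, ABCC1 with piroxicam was -0.033, ABCB1 A_11_P050841 of carprofen against piroxicam 0.046 and ABCC1 of robenacoxib against carprofen 0.015. With normexp and quantile normalization these were -0.024, 0.085 and 0.0061, and ABCB1 A_11_P050841 with carprofen was 0.052; in the authors' table they were -0.023, 0.085, 0.0061 and 0.053. With slide as a block, ABCB1 A_11_P050841 was 0.037 with piroxicam and 0.020 with carprofen (0.020 within slide 1), ABCA4 of robenacoxib against piroxicam 0.052 (0.052 within slide 3), and for robenacoxib against carprofen ABCC5 A_11_P050966 was -0.027 and A_11_P212613 -0.15. ABCC5 A_11_P212613 with piroxicam was -0.10 without control 3 and piroxicam 3. Leaving out 1 array, it ran from -0.041 to 0.11, ABCB1 A_11_P050841 from -0.014 to 0.0013 with piroxicam, -0.030 to 0.021 with carprofen and -0.023 to 0.028 for carprofen against piroxicam, ABCA4 of robenacoxib against piroxicam from -0.17 to 0.14 and ABCC1 of robenacoxib against carprofen from -0.057 to 0.021. The cause of these changes was not tested.

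Replicate numbers did not pair the arrays: the deviations of 18 same-numbered pairs correlated at -0.45 to 0.20, with 3 pairs above 0.1. With the replicate number as a block, 1, 5 and 4 transporter probes were called for piroxicam, carprofen and robenacoxib against control. Of all tested probes, 23.3%, 28.2% and 17.2% were then called. Carprofen and robenacoxib against piroxicam gave 5 and 6 calls, beside 33.7% and 23.2% of all tested probes. Robenacoxib against carprofen gave 0, beside 4.3%, and the F-test gave 6, beside 41%. This pairing therefore changed no call of a transporter probe. Signal over background limits ABCC2, which could not be tested, and ABCC5 A_11_P212613, whose call with carprofen was also lost with quantile normalization (0.52, adjusted p = 0.10).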
